A study of Ovis aries with 91 samples.

Results

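The right atrial appendage of sheep in the transition state was compared with that of control sheep, as whole tissue, over 12333 genes of the 13187 that the deposited whole tissue table lists. The genes were those with a mean log2 CPM (the log2 of counts scaled to a common library size) of 0 or more over the table. The other 854 genes lay below that minimum, with values of 0.0036 just inside it and −0.00063 just outside. The comparison rests on 6 of the merged columns, which stand for 12 of the 91 labelled samples of the series. The transition sheep were D24, D27 and D30, so labelled, and the controls were S3 and S4, labelled sham, together with C1, whose condition is given as control while the titles of its right whole tissue samples say sham.

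Fibrillation had been brought about with rapid pacing from an implant in the right atrium, so the appendage studied here belongs to the paced chamber. The labels do not say whether control animals carried a device, how long pacing lasted, or the age, sex or breed of the sheep. RNA came from the left and right appendages (whole tissue, and cardiomyocytes, the beating cells of the wall, after isolation) and from the posterior left atrium, and was sequenced on an Illumina HiSeq instrument. In the appendages the labels give each sample 2 technical replicates, which had been merged into 1 column before deposit, and sheep served as the replicates.

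Atrial fibrillation is a fast and irregular rhythm in which the atria no longer contract as a unit. It is known to remodel the atria as it persists, with altered ion channels and calcium handling in the muscle cells and with growth of connective tissue, and rapid pacing in large animals is an established way to set that process going. The appendages are blind pouches of atrial wall. The right one opens into the chamber that holds the sinus node, the heart's pacemaker, and left and right atrium follow different developmental programmes. Genes appear in the authors' tables under Ensembl sheep IDs without gene names, and 0 of these IDs matched the gene table used here, so genes are given by ID, no function is assigned to them, and the tissue could not be checked against cell type markers. In the whole tissue values, fewer cells of a type and less RNA per cell cannot be told apart.

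The 6 right libraries held 7343221 to 22382458 listed reads. Transition sheep D24 had the deepest library, and the next deepest, of control sheep S3, held 11484041 reads. The 10 most abundant genes took 15.9% to 17.5% of the reads. Correlations across genes were 0.943 to 0.966 between sheep of the same group and 0.919 to 0.962 between sheep of different groups (Pearson's r; genes are not independent replicates). As a check for duplicate libraries, chi-square per degree of freedom between the reads of sheep in a group was 18.4 or more, so no duplicate was seen; it says nothing of how far the animals differ.

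Among the genes that passed the adjusted threshold, more were higher than lower in transition sheep. By limma with Benjamini-Hochberg adjustment over all tested genes, 58 genes were higher in transition sheep, which is 0.47% of the genes tested, and 19 were lower, which is 0.154%. Together these 77 genes made up 0.624% of those tested, at an adjusted p threshold of 0.05. The median change of all genes was 0.0016 on the log2 scale, so the changes given below stand against a centre close to 0. Without any adjustment 1870 genes, or 15.2%, had a p under 0.05, and a change of at least 1 on the log2 scale was seen in 538 genes, or 4.36%. In all 58 genes that were higher the lowest transition sheep lay above the highest control, and in all 19 that were lower the highest transition sheep lay below the lowest control. Such a gap was common among all tested genes, with 10.6% showing it upward and 9.92% downward, so the gap alone does not set these genes apart.

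The increases had a median of 1.29 on the log2 scale, which is 2.44-fold, and ran between 0.63 and 4.78. An increase of at least 1 was reached by 42 of the 58 genes, one of at least 2 by 12 genes and one of at least 3 by 5 genes. The decreases had a median of −1.35, which is 2.55-fold lower, and ran between −0.74 and −6.22, with 14 of the 19 genes falling by at least 1 and 2 of them by at least 3. Adjusted p-values by limma lay between 0.000819 and 0.0497 for the increases and between 0.00525 and 0.0497 for the decreases.

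Genes that were higher tended to be abundant ones. Their mean level had a median of 5.94 log2 CPM, against 4.19 over all tested genes, and reached 13.7, while the genes that were lower had a median level of 4.0 and none above 7.27. Among the 3083 genes with the highest level, from 5.61 log2 CPM upward, 32 genes lay above and 4 below the controls in transition sheep, and 1.17% of them passed the threshold. Among the 3084 genes with the lowest level, up to 2.66 log2 CPM, 9 were higher and 5 lower, and 0.454% passed. Between 2.66 and 4.19 log2 CPM 5 genes were above and 6 below the controls, at 0.357%, and from there to 5.61 there were 12 above and 4 below, at 0.519%. The standard error of the change had a median of 0.173 in the highest of these level classes and 0.42 in the lowest, so a change of a given size passed more readily in abundant genes.

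**Figure D1:**
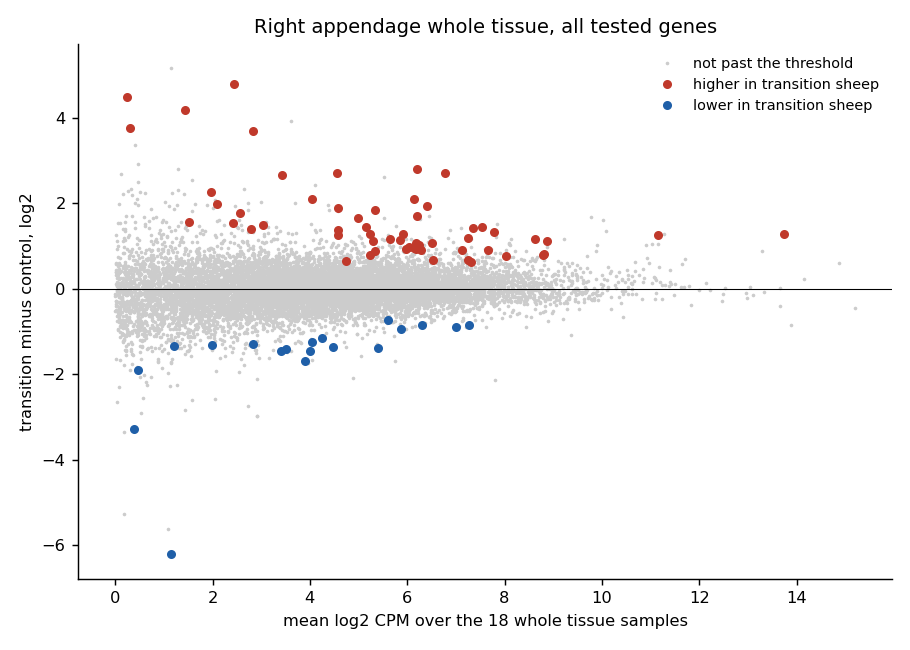
Transition minus control change in right appendage whole tissue (log2, vertical axis) against the mean log2 CPM over the 18 whole tissue samples (horizontal axis), with each of the 12333 tested genes as a point. The 58 genes higher in transition sheep (red) reach far into the abundant genes, up to 13.7 log2 CPM, while the 19 lower genes (blue) end at 7.27.

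The count depends on single sheep. It was 27 without control sheep S3, 35 without C1 and 48 without S4, and among transition sheep the loss of D24 left 27, of D27 19 and of D30 46. Of the 77 genes, 13 passed in all 6 of these fits, 12 of them higher and 1 lower in transition sheep, and 15 passed in none. The 6 right libraries fitted alone gave 12 genes, plain library totals as the scaling gave 32 higher and 17 lower, and sample quality weights gave 447 higher and 253 lower.

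Among genes past the threshold and at or above the median level of 4.19 log2 CPM, ENSOARG00000012673 had the largest increase. It also had the smallest p of all tested genes. Its level was 6.21 log2 CPM in transition sheep D24, 6.79 in D27 and 6.96 in D30, against 3.97 in control sheep S3, 3.99 in S4 and 3.59 in C1. The groups were far apart, with 959 to 1729 reads in the transition libraries and 101 to 186 in the control libraries. The mean was 6.65 ± 0.40 in transition sheep and 3.85 ± 0.23 in controls (SD, n = 3 each). The change was 2.80 ± 0.32 (SE), which is 6.98-fold (limma adjusted p = 0.000819). It passed the threshold under all 15 alternatives tried for it, including each left-out sheep, with changes of 2.49 to 3.03.

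ENSOARG00000020383 was the second such gene. It had 7.67 log2 CPM in transition sheep D24, 7.19 in D27 and 6.96 in D30, against 5.08 in control sheep S3, 4.65 in S4 and 3.95 in C1. Here D24 was the highest transition sheep, whereas for ENSOARG00000012673 it was the lowest. The mean was 7.27 ± 0.37 in transition sheep and 4.56 ± 0.57 in controls (SD, n = 3 each), a change of 2.71 ± 0.31 (SE), or 6.56-fold (limma adjusted p = 0.000819). This gene also passed under all 15 alternatives, with changes of 2.41 to 3.03.

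ENSOARG00000022521 had the largest decrease among genes past the threshold and at or above the median level. It had 5.01 log2 CPM in transition sheep D24, 5.45 in D27 and 4.78 in D30, against 6.78 in control sheep S3, 5.91 in S4 and 6.71 in C1. The gap between the groups was narrow, since transition sheep D27 lay close under control sheep S4. The mean was 5.08 ± 0.34 in transition sheep and 6.46 ± 0.48 in controls (SD, n = 3 each), a change of −1.38 ± 0.23 (SE), or 2.60-fold lower (limma adjusted p = 0.00967).

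ENSOARG00000024133 showed the same order of sheep within the transition group. Its level was 4.08 log2 CPM in D24, 4.68 in D27 and 3.70 in D30, against 5.65 in control sheep S3, 5.05 in S4 and 5.86 in C1. The mean was 4.16 ± 0.49 in transition sheep and 5.52 ± 0.42 in controls (SD, n = 3 each), a change of −1.36 ± 0.26 (SE), or 2.57-fold lower (limma adjusted p = 0.022). Over the 18 whole tissue samples these 2 decreasing genes were the closest match of each other, with a Pearson's r of 0.968, given as a description since the samples share sheep and states. The calls of both named genes were lost without S3, C1, D24 or D30 and with the right libraries fitted alone. Over all alternatives the change of ENSOARG00000022521 was −1.66 to −1.22 (adjusted p up to 0.103) and that of ENSOARG00000024133 was −1.62 to −1.13 (adjusted p up to 0.125).

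**Figure D2:**
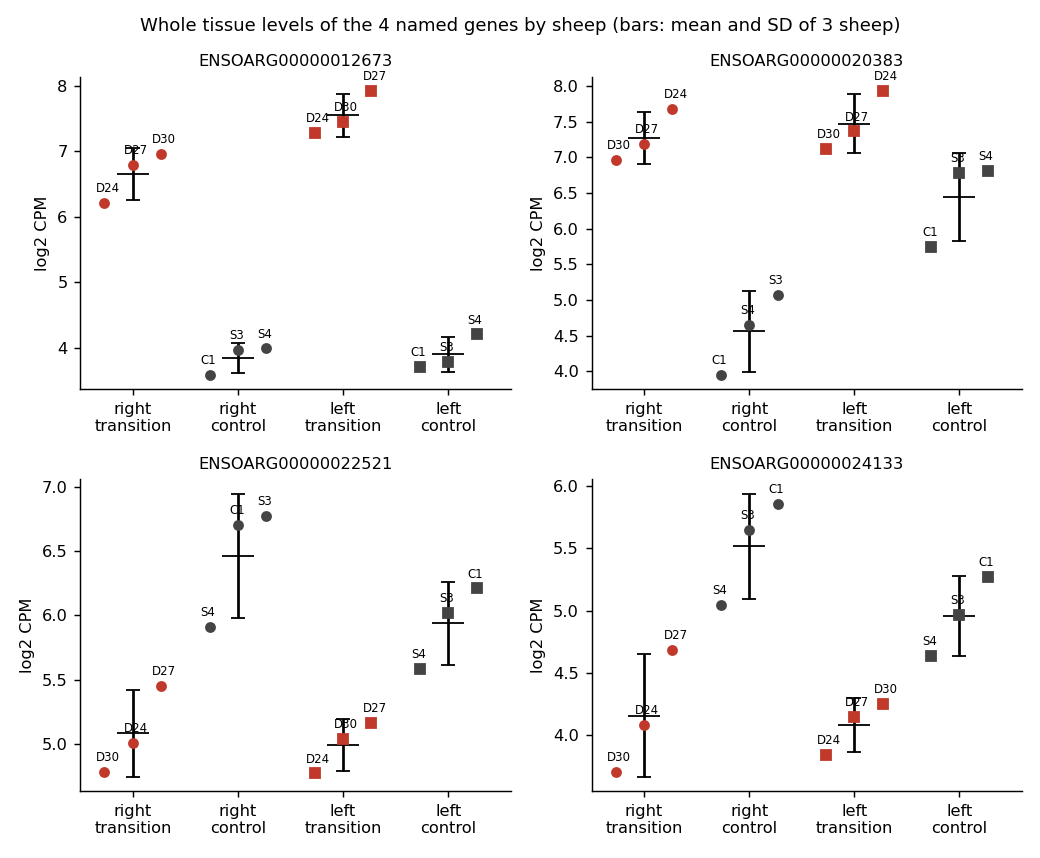
Level in whole tissue (log2 CPM, vertical axis) of the 4 named genes in each sheep, by side and state, with transition sheep in red and controls in grey; the wide bars are means and the whiskers SDs of 3 sheep. ENSOARG00000020383 stands at 3.95 to 5.08 in right controls and at 5.74 to 6.81 in left controls, while its transition sheep lie between 6.96 and 7.92 on both sides.

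Among the transition sheep, D27 had the highest median of the increases. Relative to the control mean, the 58 higher genes had a median of 1.62 in D27, 1.22 in D24 and 1.10 in D30, against −0.07 in control sheep S3, 0.061 in S4 and 0.02 in C1. D27 was the highest transition sheep in 41 of the 58 genes, D30 in 10 and D24 in 7. Over all tested genes D27 was the highest of the 3 in 37.7% and the lowest in 40.7%. For the 19 lower genes the order differed, with medians of −1.57 in D30, −1.26 in D27 and −1.14 in D24, against 0.193 in S3, −0.247 in S4 and 0.022 in C1. D30 was the lowest transition sheep in 11 of the 19 genes, and in 35.4% of all tested genes.

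**Figure D3:**
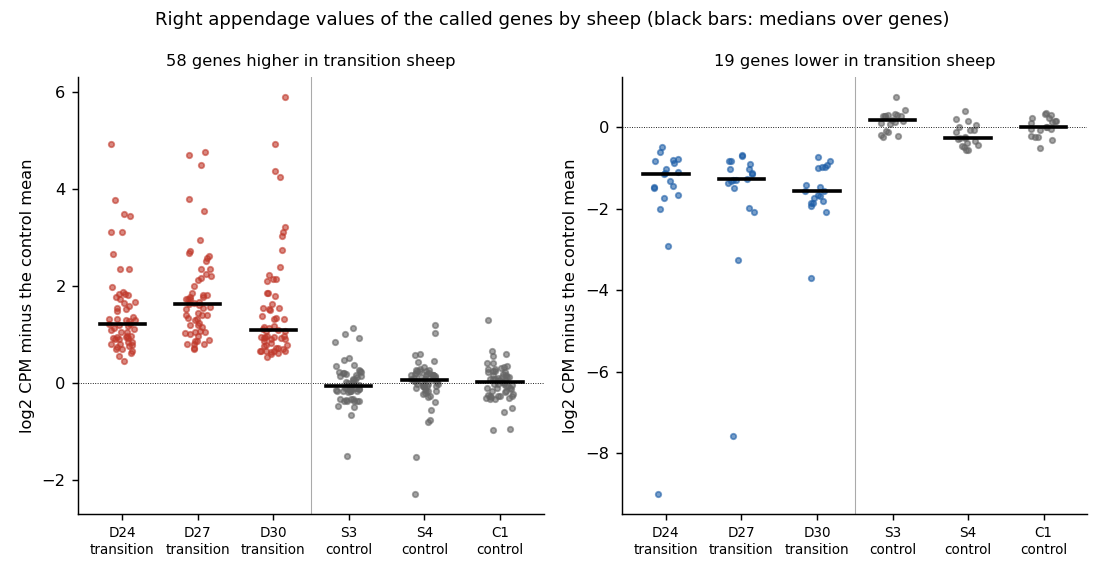
Level of each gene past the threshold minus its mean over the 3 right controls (log2, vertical axis) in each of the 6 sheep, with 58 higher genes in the left panel and 19 lower genes in the right panel; black bars are medians over genes. D27 has the highest median of the higher genes, at 1.62, and D30 the lowest median of the lower genes, at −1.57.

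Among genes past the threshold, the largest fold changes belonged to genes whose mean level over the table lay below the median of 4.19 log2 CPM. The rule for naming genes left these out. The largest increase past the threshold was 4.78 ± 0.71 (SE). That gene had 4.42, 4.0 and 4.42 log2 CPM in transition sheep D24, D27 and D30. In control sheep S3, S4 and C1 it had −0.87, −0.26 and −0.38. In the left appendage the same gene stood at 4.32 in D24 and 4.57 in D30 but at 0.88 in D27. A further gene had 17, 6 and 29 reads in D24, D27 and D30 and 0 reads in all 3 control libraries. Pooled over the group it had 1.31 CPM in transition sheep and under 0.114 CPM in controls, the level that 3 reads over the control libraries would give. The ratio of these values is 11.5, which allows for counting error in the controls but not in the transition sheep. By sheep the level was 0.76 CPM in D24, 0.706 in D27 and 3.34 in D30. This gene kept its call in 1 of the 6 fits without a sheep, and the gene with the largest increase in all 6. In all, 9 of the 58 higher genes had a control library with under 10 reads.

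The largest decrease past the threshold, −6.22 ± 1.17 (SE), did not hold to the same degree in every transition sheep. That gene had 0 reads in D24, 0 in D27 and 23 in D30, against 140 in S3, 81 in S4 and 89 in C1. With 2 libraries at 0 reads the fitted size depends on the 0.5 reads added before the log, and the gene kept its call in 1 of the 6 fits without a sheep. The same split between sheep was seen in the left appendage, where it stood at −4.18 log2 CPM in D24, −3.97 in D27 and 0.51 in D30, against 3.25 to 3.61 in controls. Of the 19 lower genes, 3 had a transition library with under 10 reads.

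Each of these sheep also gave a left appendage sample, which shows how far the right-sided changes were shared by the side away from the pacing device. The left samples are other pieces of tissue from the same animals, so they are no independent set of sheep. On the left 131 genes were higher in transition sheep, 1.06% of those tested, and 53 were lower, 0.43%. Of the 58 genes higher on the right, 27 also passed on the left, all of them higher. That is 46.6% of the right-sided and 20.6% of the left-sided increases. Of the 19 genes lower on the right, 7 passed on the left as well, 36.8% of the right-sided and 13.2% of the left-sided decreases.

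The direction was shared more widely than the calls. All 58 genes higher on the right had a left change above 0, with a median of 0.94 and a range of 0.18 to 4.90, and 18 of the 19 lower genes had a left change below 0, with a median of −0.88 and a range of −5.99 to 0.108. Over all tested genes the left change was above 0 in 49.3%. Taken from the other side, the 131 genes higher on the left had a median change of 0.60 on the right, with 114 above 0, and the 53 genes lower on the left had a median of −0.47 there, with 52 below 0. The number of right-sided increases that also passed on the left was 13 without S3, S4 or C1, 9 without D24, and 15 and 19 when D27 or D30 was dropped, and that of the decreases was 1 without S3, 2 without D24 or D27 and 4 without S4, C1 or D30.

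On the left ENSOARG00000012673 changed by 3.65 ± 0.32 (SE, limma adjusted p = 3.03e-05), with a right minus left difference of −0.84 ± 0.38 (adjusted p = 0.633). ENSOARG00000020383 changed by 1.02 ± 0.31 on the left (adjusted p = 0.124), and its right minus left difference was 1.69 ± 0.37 (unadjusted p = 0.000297, limma adjusted p = 0.184), which did not pass over all genes. Its transition levels lay within 1 SD of each other, at 7.27 ± 0.37 on the right and 7.47 ± 0.41 on the left (SD, n = 3 each), whereas its control levels were 4.56 ± 0.57 on the right and 6.44 ± 0.61 on the left. The left change of ENSOARG00000022521 was −0.94 ± 0.23 (adjusted p = 0.0482) and that of ENSOARG00000024133 was −0.87 ± 0.26 (adjusted p = 0.11).

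Tested gene by gene as an interaction, the right change differed from the left change in 3 genes, 0.0243% of those tested, and 925 genes, or 7.5%, had an unadjusted p under 0.05. The count was 0 with voom and 0 at a minimum of 1 log2 CPM, 1 with a pseudocount of 10 reads, 1 without the replicate block (no sheep term) and 73 with sample quality weights, and without a sheep it was 2 for S3, 0 for S4, C1, D24 or D27 and 16 for D30. None of these 3 genes was among the 77 genes past the threshold on the right. The smallest limma adjusted p of a right minus left difference was 0.118 among the 58 higher genes and 0.184 among the 19 lower genes. The difference had a median of 0.263 over the higher genes, with 47 of 58 above 0, and of −0.44 over the lower genes, with 18 of 19 below 0. Genes picked for a large right-sided change lean this way through the choice itself.

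In the 3 genes that differed, the left appendage moved and the right did not pass. Their left changes were 2.22 to 6.40, all past the threshold, and their right changes were −0.88 to −0.27, none past it. All 3 lay below the median level, at 0.24 to 2.36 log2 CPM, so they fall outside the rule for naming genes and were picked after their values were seen. In each of them every right control lay above every left control. The control levels are part of the difference by which these genes were picked, so this gap is no separate support. The share of all genes with such a gap was not taken. Of their 36 library values, 8 rested on under 10 reads.

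ENSOARG00000015333 showed the widest difference. On the right it had 20, 5 and 10 reads in transition sheep D24, D27 and D30, against 8, 10 and 14 in control sheep S3, S4 and C1. On the left it had 172, 77 and 40 reads in the same transition sheep, against 4, 0 and 0 in the controls. The right groups overlapped and the left groups did not, and the right minus left difference was −6.86 ± 0.88 on the log2 scale (SE, limma adjusted p = 0.00658). With 0 reads in 2 of the left controls this size depends on the 0.5 reads added before the log, and with 10 reads added it was −3.46, still past the threshold. The call was lost with voom and without S4, C1, D24 or D27, and the adjusted p over all alternatives was 0.000208 to 0.167.

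ENSOARG00000010633 had 163, 43 and 43 reads on the right in D24, D27 and D30, against 243, 63 and 52 in S3, S4 and C1. On the left it had 77, 96 and 38 reads in the transition sheep, against 25, 13 and 10 in the controls. In log2 CPM its right levels were 2.46 ± 0.30 in transition sheep and 3.34 ± 0.90 in controls, and its left levels 2.99 ± 0.69 in transition sheep and 0.77 ± 0.22 in controls (SD, n = 3 each). The difference was −3.09 ± 0.50 (SE, limma adjusted p = 0.0446). The left controls lay at 0.58 to 1.01, left transition sheep at 2.25 to 3.62 and the right samples at 2.26 to 4.35. The gene was picked by these same values, so their pattern is no separate support for its call. This call was lost in 9 of 14 alternatives: at a minimum of 1 log2 CPM, with a pseudocount of 10 reads, without the replicate block, with voom, and without S3, S4, C1, D24 or D27. Over all alternatives the difference was −3.36 to −2.51 and the adjusted p 0.011 to 0.265.

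**Figure D4:**
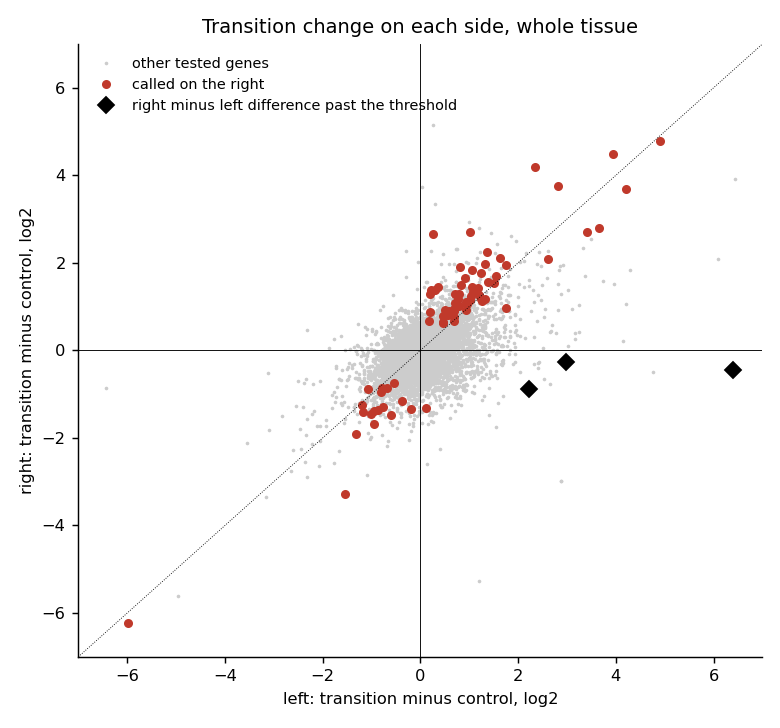
Transition minus control change in the right appendage (log2, vertical axis) against that in the left appendage (log2, horizontal axis) for all tested genes of whole tissue; the dotted line marks equal change. Of the genes past the threshold on the right (red), 47 of the 58 higher ones lie above the line and 18 of the 19 lower ones below it. Picking genes by their right change leads to such a lean. The 3 genes with a right minus left difference (black diamonds) lie at left changes of 2.22 to 6.40 and right changes under 0.

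Isolated cardiomyocytes of the right appendage were measured in transition sheep D23, D24 and D27 and in control sheep S3, S4 and C1, so 5 of these 6 animals are also in the whole tissue comparison. The table was normalised separately, and changes are set side by side without a test across tables. There 48 genes were higher in transition sheep, 0.391% of the 12279 tested, and 32 were lower, 0.261%. Of the 58 genes higher in right whole tissue, 10 passed in cardiomyocytes, all higher, and the median cardiomyocyte change of the 58 was 0.68, with a range of −0.18 to 3.55 and 56 above 0. Of the 19 lower genes 17 were measured, and 3 passed, all lower; the median was −0.77, with a range of −5.32 to 0.016. The median change over all cardiomyocyte genes was −0.017, and 48.1% of them had a change above 0.

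ENSOARG00000020383 had the smallest p of all genes in right cardiomyocytes. It stood at 7.46 ± 0.71 log2 CPM in transition sheep and 4.46 ± 0.60 in controls (SD, n = 3 each), a change of 2.99 ± 0.34 (SE, limma adjusted p = 0.00145). In right whole tissue its change was 2.71. ENSOARG00000012673 changed by 0.76 ± 0.21 in cardiomyocytes (adjusted p = 0.113), with 6.75 ± 0.17 log2 CPM in transition sheep and 5.99 ± 0.37 in controls (SD, n = 3 each). Its control level in isolated cells stood above the 3.85 seen in right whole tissue, each on the scale of its own table. The changes of ENSOARG00000022521 and ENSOARG00000024133 were −0.98 ± 0.37 (adjusted p = 0.262) and −1.03 ± 0.39 (adjusted p = 0.257). Both were lowest in transition sheep D24 in isolated cells. In right whole tissue D30, which gave no cardiomyocyte sample, was lowest. For both genes D24 lay below D27 in either kind of sample. The 10 shared increases became 19 without D23 and 3, 5, 4, 4 and 2 without S4, S3, C1, D24 and D27, and the 3 shared decreases became 0 or 1 without S3, S4, C1, D24 or D27.

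Whether the genes with higher or lower right levels were ones that control tissue already holds in uneven shares was described in control sheep. In control cardiomyocytes the left minus right difference had a median of 0.066 over the 58 higher genes and of 0.0049 over all genes. It was above 0 in 35 of the 58, or 60.3%, and in 51.1% of all genes. Over the 17 lower genes measured there the median was −0.141, with 7 above 0, or 41.2%. In left control samples, whole tissue minus cardiomyocytes had a median of 0.287 over the higher genes and 0.452 over the lower genes, against 0.328 over all genes, each table on its own scale. No test was made of these medians or shares.

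The posterior left atrium table holds sheep with G numbers that gave no appendage sample. In the transition state there were 4, whose titles say saline, and the 3 controls are labelled sham, while their titles say control. Saline stands in the titles of the transition sheep only. These are other animals, though another region, and their depth is unknown. A difference between the sets of sheep had been removed from that table before deposit. In these sheep 430 genes were higher in transition, 3.57% of the 12032 tested, and 301 were lower, 2.5%. Of the 58 genes higher in the right appendage 57 were measured, and 28 passed there, all higher. Their median change was 0.70, with a range of −0.28 to 5.27 and 55 above 0. Of the 19 lower genes 16 were measured, all with a change below 0, and 10 passed, with a median of −0.73. The median over all genes of these sheep was −0.014, with 48.4% above 0 and 51.6% below 0.

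Of the named genes, 3 passed in these animals. ENSOARG00000012673 stood at 6.09, 5.61, 7.12 and 5.87 in transition sheep G5, G13, G34 and G26, against 3.71, 4.63 and 4.16 in control sheep G21, G32 and G36. All 4 transition sheep were above all 3 controls, but the share of all genes with such a gap was not taken in these sheep. The change was 2.01 ± 0.33 (SE, limma adjusted p = 0.00659). ENSOARG00000022521 stood at 4.71, 3.96, 6.08 and 4.37 in the transition sheep, against 6.27, 6.33 and 6.63 in the controls, a change of −1.63 ± 0.39 (adjusted p = 0.0357). Sheep G34 lay just under the controls and the other transition sheep well below them. The change of ENSOARG00000024133 was −1.88 ± 0.40 (adjusted p = 0.0233), and G34 was again the highest transition sheep, at 4.95 against 2.79 to 3.65 in the others. ENSOARG00000020383 did not pass, with 7.27 ± 0.38 (SD, n = 4) in transition sheep, 6.85 ± 0.81 (SD, n = 3) in controls and a change of 0.42 ± 0.32 (SE, adjusted p = 0.495). The 28 shared increases were 18 without G32 or G36 and 19 without G26, and the 10 shared decreases were 3 without G32, 4 without G36 and 5 without G5 or G26. With all sheep of that table and a term for their set they were 43 and 15, but this fit takes in sheep that also gave appendage samples.

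**Figure D5:**
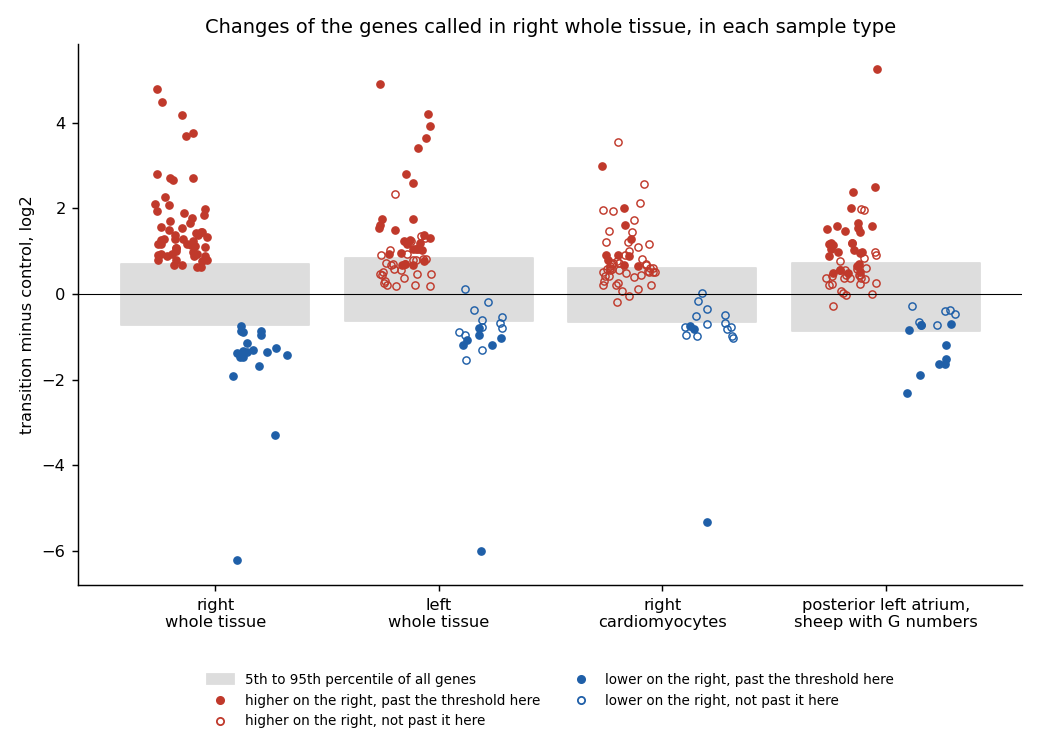
Transition minus control change (log2, vertical axis) of the genes past the threshold in right whole tissue, in 4 kinds of sample; red genes were higher and blue genes lower in right whole tissue, filled points passed in the kind of sample shown, and grey bars hold the 5th to 95th percentile of all tested genes there. In the left appendage all 58 red genes lie above 0, in right cardiomyocytes 56 do, and in the posterior left atrium of other sheep 55 of 57. Over all tested genes the shares above 0 were 49.3%, 48.1% and 48.4%.

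Right whole tissue of chronic sheep D15, D16 and D19 was compared with the same 3 control samples, so the transition and chronic changes share their baseline and only the values are set side by side. ENSOARG00000012673 averaged 3.85 ± 0.23 log2 CPM in controls, 6.65 ± 0.40 in transition sheep and 7.33 ± 0.74 in chronic sheep (SD, n = 3 each). The level of ENSOARG00000020383 was 4.56 ± 0.57 in controls, 7.27 ± 0.37 in transition sheep and 7.36 ± 0.51 in chronic sheep. ENSOARG00000022521 had 6.46 ± 0.48 in controls, 5.08 ± 0.34 in transition sheep and 5.05 ± 0.31 in chronic sheep. ENSOARG00000024133 had 5.52 ± 0.42 in controls, 4.16 ± 0.49 in transition sheep and 4.21 ± 0.23 in chronic sheep. For the last 3 genes transition and chronic means lay within 1 SD of each other, by the SD of either group. For ENSOARG00000012673 they lay within the chronic SD but not within the smaller transition SD. The chronic level of ENSOARG00000012673 ranged widely, with 6.48 in D19 against 7.70 in D16 and 7.82 in D15. The gene with the largest decrease past the threshold in transition sheep stood at 2.10 to 2.88 log2 CPM in chronic sheep. That lay below the right controls at 3.39 to 3.56 and above every transition sheep.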

How the data were processed

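Libraries were made with the Illumina NEBNext Ultra kit, per the labels' protocols. The submitters' processing notes list limma, RSEM, cutadapt and bcl2fastq, with no version or role. For the aligner, genome build, annotation and use of strand, the sources used here give nothing. The authors deposited log2 values in 3 tables. In the appendage tables each value is the log2 of whole reads plus 0.5 over the scaled library size (log2 CPM). Whole reads came back within 0.05 reads for all 237366 values of whole tissue and all 238716 of cardiomyocytes, and gave the depth. Tested for a difference between its 2 sets of sheep, the posterior left atrium table gave a p below 0.1 in 0.465% of genes and above 0.9 in 17.7%, so that difference had been taken out before deposit; depth is unknown. All columns were tied to a group (0 were not).

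The deposited log2 values, with no further pseudocount, were fitted in limma 3.58.1 (R 4.3.3, eBayes with a trend), a step tested on simulated data. The 6 group means of an appendage table were fitted to all 18 samples, with sheep, which the labels name and which gave left and right samples, as a random effect (consensus correlation 0.294 in whole tissue, 0.47 in cardiomyocytes). Such fits pool the spread over states and sides. Benjamini-Hochberg adjustment ran over all genes with a mean log2 value of 0 or more, at a threshold of 0.05. Genes were named that passed, lay at or above the median level and did not overlap between groups, the largest changes first and 2 in each direction. The lists and members were chosen with earlier results of these data known. Lists of gene symbols and markers could not be used, since 0 IDs matched. Alternatives were other scalings, filters, a pseudocount of 10, no sheep term, voom or sample quality weights, the right samples alone and each sheep left out. Whether sheep stand for separate operations or days is not stated. Intervals from reads cover counting error only. The counting may split the reads of near-identical or overlapping genes.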

Additional observations from a re-analysis of the deposited data

Results flagged for a closer look

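The right minus left difference of the transition change passed the interaction test in 3 genes of whole tissue. For ENSOARG00000015333 it was −6.86 on the log2 scale, with a change of −0.46 ± 0.74 on the right and 6.40 ± 0.74 on the left (SE). The left controls held 4, 0 and 0 reads, so the size depends on the reads added before the log. It was −3.46 with a pseudocount of 10 reads, and the call was lost in 5 of 13 alternatives. For ENSOARG00000010633 it was −3.09, with −0.88 ± 0.42 on the right and 2.22 ± 0.42 on the left (SE), and the call was lost in 9 of 14 alternatives. In right cardiomyocytes ENSOARG00000010633 changed by −0.036 ± 0.46 (SE, limma adjusted p = 0.983), and in the posterior left atrium of sheep with G numbers by −0.12 ± 0.39 (SE, limma adjusted p = 0.895).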

How the results depend on the processing

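The right count of 77 was 49 with library totals, 12 with the right samples alone and 700 with sample quality weights, and 19 to 48 with a sheep left out. With voom it was 58 higher and 39 lower, 59.8% higher, against 75.3% in the reported fit. Without the replicate block it was 71, and with the other filters, scalings and pseudocount it was 72 to 76. The right minus left count of 3 was 0 at a minimum of 1 log2 CPM and with voom, 1 with a pseudocount of 10, 1 without the replicate block and 73 with sample quality weights, and 0 to 16 with a sheep left out. The left count of 184 was 33 to 146 with a sheep left out, and the count of 80 in right cardiomyocytes was 52 without the replicate block and 9 to 309 with a sheep left out. Chronic right tissue gave 155 genes, and 38 to 429 with a sheep left out. The posterior left atrium count of 731 was 254 to 962 with a sheep left out and 2098 with all sheep and a term for their set. No named gene reversed under any alternative run. ENSOARG00000010633 kept its call in 5 of 14 alternatives (−3.36 to −2.51) and ENSOARG00000015333 in 8 of 13 (−8.03 to −3.46). The cause of these shifts was not tested. Library totals moved the median of all genes to −0.051. Depth limits genes with under 10 reads in a library.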
